A study of Mus musculus with 11 samples.

Results

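The Hedgehog pathway is described here through 9 of its genes in the facial processes of mouse embryos: the ligand gene *Shh*, the ligand-binding antagonist *Hhip*, the receptor *Ptch1*, the co-receptors *Boc* and *Gas1*, the transducer *Smo* and the transcription factors *Gli1*, *Gli2* and *Gli3*. The 9 genes were chosen by name, as members of the pathway, out of 38561 genes counted. All 9 passed the filter on low counts, with 83 to 5406 reads per gene and library, and are among the 17317 genes tested. RNA came from mandibular and maxillary branchial arch and nasal process tissue, dissected together at embryonic day 10.5 from embryos of mixed strain. Wild-type embryos (wt, 2 libraries) were compared with embryos lacking *Wnt9b*, which encodes a WNT ligand (Wnt9bKO, 3 libraries), embryos lacking *Rspo2*, which encodes a secreted potentiator of WNT signaling (Rspo2KO, 3 libraries), and embryos lacking both genes (DKO, 3 libraries). The study's methods describe an *Rspo2* null allele and a *Wnt9b* mutant allele, neither limited to a cell type, and the tissue held ectoderm and mesenchyme together. No source says whether embryos were pooled.

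Several features of the whole series bear on the results. Total counts ranged from 11136166 to 18017344 per library. *Rspo2* was at 14.8 and 16.0 CPM (counts scaled to a common library size) in wt and at 4.74 to 6.59 CPM in Rspo2KO, but the library labelled Wnt9bKO 2 held 2.86 CPM and the library labelled DKO 3 held 15.5 CPM, which goes against their labels. *Wnt9b* counts did not fall in any library labelled Wnt9bKO or DKO (16.2 to 23.3 CPM, against 10.8 and 13.4 CPM in wt), so they do not check those labels. *Xist*, the RNA that coats the inactive X chromosome, was at 680 to 1469 CPM in all wt and DKO libraries and at 0.821 to 1.94 CPM in all Wnt9bKO and Rspo2KO libraries, so the sex of the embryos cannot be told apart from genotype where either single mutant is compared with wt or DKO. DKO and wt did not differ in this way. Summed reads of the small nuclear RNA genes were 352 to 420 CPM in wt and Rspo2KO and 70.1 to 82.7 CPM in Wnt9bKO and DKO, a difference in RNA makeup that cannot be told apart from the *Wnt9b* genotype. Markers of the labelled tissue were present throughout, with 11 genes of the cranial mesenchyme summing to 794 to 1431 CPM and 8 genes of the surface epithelium to 222 to 267 CPM.

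In the Hedgehog pathway, a secreted ligand such as SHH binds Patched receptors, together with the co-receptors BOC, CDON and GAS1. Unbound Patched holds back Smoothened, the product of *Smo*. When the ligand is bound, Smoothened accumulates in the primary cilium and the GLI proteins switch from repressors, made chiefly from GLI3, to activators, chiefly GLI2. *Gli1*, *Ptch1* and *Hhip* are transcribed in response to the signal and serve as readouts of it, and PTCH1 and HHIP in turn limit the ligand. In the embryonic face SHH is made by the epithelium, and the mesenchyme beneath it responds during outgrowth of the facial processes.

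On GRCm38 with the GENCODE M21 annotation, *Shh* spans chr5:28456815-28467256, *Hhip* chr8:79965851-80058006, *Boc* chr16:44485049-44558897, *Gli1* chr10:127329882-127341974 and *Gas1* chr13:60174405-60177365, all on the minus strand. *Ptch1* spans chr13:63508328-63573598 and *Gli2* chr1:118834132-119053619 on the minus strand, and *Smo* chr6:29735503-29761365 and *Gli3* chr13:15463235-15730026 on the plus strand. Reads were counted over exons.

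The 4 genes whose levels changed in at least 1 comparison with wt were *Ptch1*, *Gli2*, *Gli3* and *Smo*, and the 250 bases before their annotated start are printed here because they are the promoter-proximal sequence of the genes the results turn on. The sequences are from RefSeq on GRCm38.p6, the build to which the reads were mapped, and are given 5′ to 3′ on the strand of the gene. The *Ptch1* window is at chr13:63565736-63565985 on the minus strand, inside an intron of longer annotated *Ptch1* transcripts. The *Gli2* window is at chr1:119053620-119053869 on the minus strand, and the *Smo* window at chr6:29735247-29735496 on the plus strand, both outside annotated genes. The *Gli3* window is at chr13:15463473-15463722 on the plus strand, inside an intron of longer *Gli3* transcripts and overlapping an exon of the antisense gene *Gm6556*. Capitals mark a match to the inner letters of the GLI binding consensus.
Ptch1: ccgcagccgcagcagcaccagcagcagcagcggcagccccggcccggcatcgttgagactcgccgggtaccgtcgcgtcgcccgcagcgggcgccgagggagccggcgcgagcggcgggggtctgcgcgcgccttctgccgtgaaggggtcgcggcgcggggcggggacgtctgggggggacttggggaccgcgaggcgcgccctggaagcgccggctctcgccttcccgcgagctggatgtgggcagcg
Gli2: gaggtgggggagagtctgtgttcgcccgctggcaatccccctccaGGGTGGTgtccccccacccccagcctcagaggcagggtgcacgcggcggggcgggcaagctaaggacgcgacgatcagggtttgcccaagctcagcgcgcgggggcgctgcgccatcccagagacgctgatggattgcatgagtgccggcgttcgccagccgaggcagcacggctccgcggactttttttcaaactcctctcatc
Gli3: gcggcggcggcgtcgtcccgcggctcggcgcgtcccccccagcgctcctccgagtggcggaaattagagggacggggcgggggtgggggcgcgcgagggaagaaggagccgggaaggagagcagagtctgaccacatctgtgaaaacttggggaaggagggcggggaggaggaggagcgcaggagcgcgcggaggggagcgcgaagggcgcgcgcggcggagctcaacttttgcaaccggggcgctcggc
Smo: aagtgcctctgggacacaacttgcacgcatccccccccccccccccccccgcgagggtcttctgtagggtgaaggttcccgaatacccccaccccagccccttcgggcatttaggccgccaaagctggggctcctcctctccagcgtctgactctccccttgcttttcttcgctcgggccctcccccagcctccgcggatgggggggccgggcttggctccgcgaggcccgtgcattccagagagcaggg

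The windows were searched on both strands for GACCACCCA, the GLI consensus, for its inner letters ACCACCC, which are contained in it, and for CTTTGAT, the core recognised by the TCF/LEF factors of WNT signaling. The full consensus was in none of the 6 windows that could be matched by symbol (these 4, *Hhip* and *Gas1*), and it was in 0.225% of the 32851 RefSeq windows of this length. The inner letters were found once, in the *Gli2* window, on the strand opposite the gene from 205 to 199 bases before the start, and 3.92% of all windows hold them. CTTTGAT was in none of the 6 windows and in 3.21% of all windows. The 4 printed windows shared a high content of G and C, 78.4% for *Ptch1*, 72.8% for *Gli3*, 68.4% for *Smo* and 67.2% for *Gli2*, where the median of all windows was 52.4%. *Shh*, *Gli1* and *Boc* are not in the table of windows.

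Levels of the 9 genes were first compared with each other per length, as CPM per kilobase of annotated exon. *Gas1* and *Smo* held the top 2 places in all 11 libraries and *Gli3* the third, while *Hhip* was the lowest of the 9 throughout. In wt the means were 58.9 ± 1.11 (SD, n = 2) for *Gas1* and 57.3 ± 1.19 for *Smo*, which did not differ beyond their spread. *Gli3* followed at 11.2 ± 1.01, and *Boc* at 7.56 ± 1.153. *Gli1* (4.96 ± 0.323) and *Shh* (4.66 ± 0.0696) were neighbours within their spread, as were *Ptch1* (3.80 ± 0.683) and *Gli2* (3.45 ± 0.0381). *Hhip*, at 0.691 ± 0.178, stood well under its nearest neighbour. In Wnt9bKO the order of the means in the middle places was different. *Ptch1* at 7.75 ± 0.256 (SD, n = 3) and *Gli2* at 6.27 ± 0.605 were both above *Gli1* (5.48 ± 0.602) and *Shh* (4.79 ± 0.645). In the library Wnt9bKO 1, however, *Gli1* (6.17) was above *Gli2* (6.08). The means of *Boc* (8.31 ± 1.06) and *Ptch1* were within their spread of each other in Wnt9bKO.

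**Figure D1:**
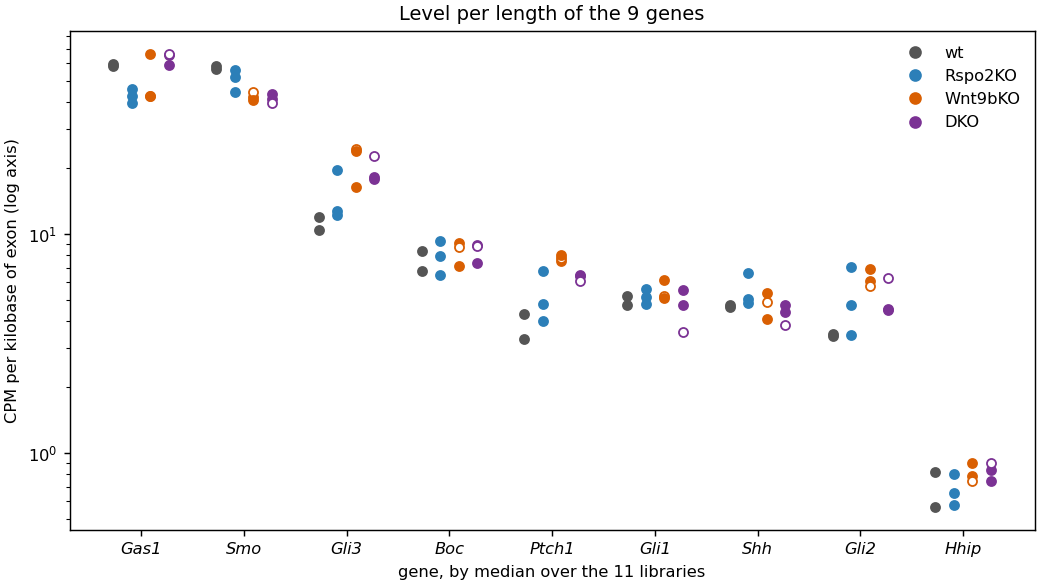
CPM per kilobase of annotated exon (log axis) of the 9 genes in each of the 11 libraries, with genes ordered by their median and points coloured by genotype; open points are the libraries labelled Wnt9bKO 2 and DKO 3. *Gas1* and *Smo* lie on top and *Hhip* lies lowest in every library, and the wt points of *Ptch1* and *Gli2* lie under the Wnt9bKO points.

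Loss of *Wnt9b* was compared with wt to ask how the pathway genes stand when this ligand is missing. *Ptch1*, *Gli3* and *Gli2* rose in Wnt9bKO, by 2.03-fold, 1.92-fold and 1.82-fold, and *Smo* fell to 0.742 of its wt level. The ligand gene *Shh* and the readout gene *Gli1* were at 1.03-fold and 1.11-fold of wt and did not pass the test. In all, 4 of the 9 genes passed the threshold (adjusted p below 0.05, edgeR's quasi-likelihood test), 3 higher and 1 lower. Of all 17317 genes tested 32.8% passed it, 16.8% higher and 16% lower, so that a call was common in this comparison. The median log2 fold change was 0.15 over the 9 genes and 0.01 over all genes tested. These are bulk samples, in which fewer cells of a type and less RNA per cell cannot be told apart.

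**Figure D2:**
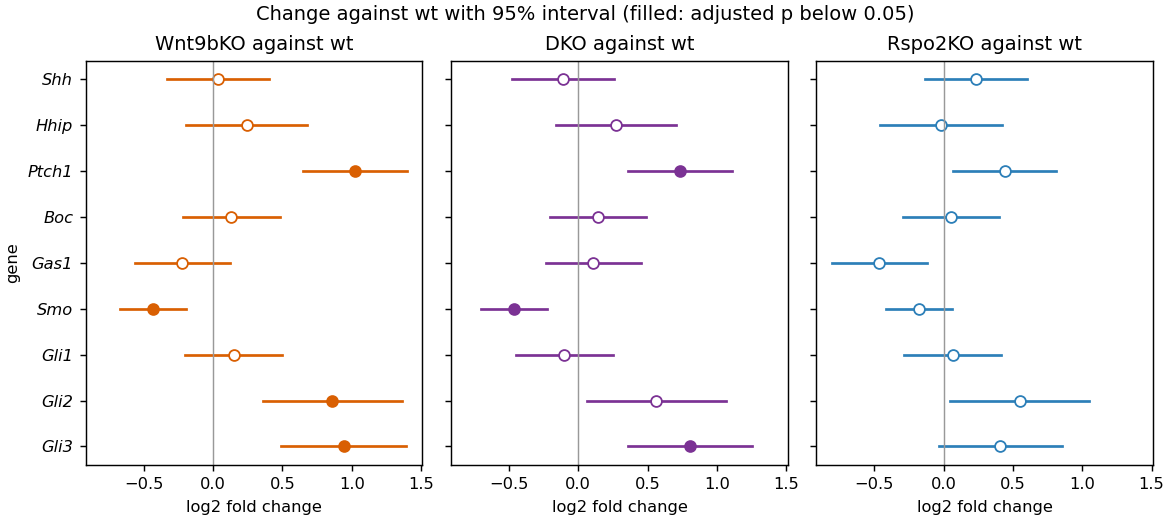
Log2 fold change of each of the 9 genes against wt in Wnt9bKO, DKO and Rspo2KO, with 95% intervals from the edgeR fit; filled points have an adjusted p below 0.05. *Ptch1* and *Gli3* lie to the right of 0 and *Smo* to the left in Wnt9bKO and DKO, *Gli2* is filled in Wnt9bKO, and no point is filled in Rspo2KO. The 3 comparisons share the wt libraries.

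Among the genes acting outside the cell, *Shh* did not pass the threshold against wt in any mutant. It was at 13.1 and 13.4 CPM in wt, at 11.7, 14.0 and 15.3 CPM in Wnt9bKO, at 13.8, 18.8 and 14.3 CPM in Rspo2KO, and at 12.5, 13.5 and 10.9 CPM in DKO. The wt values fell inside the ranges of Wnt9bKO and DKO, and the Rspo2KO values lay above both wt libraries. The log2 fold changes were 0.04 (95% interval -0.33 to 0.40) in Wnt9bKO, 0.24 (-0.13 to 0.60) in Rspo2KO and -0.11 (-0.48 to 0.26) in DKO. The upper end of the Rspo2KO interval corresponds to 1.52-fold.

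*Hhip*, whose product sequesters Hedgehog ligands, had 5.13 to 8.16 CPM over all libraries. It was at 5.13 and 7.41 CPM in wt, and the ranges of all 3 mutants overlapped these values. Its log2 fold changes were 0.24 (-0.19 to 0.68) in Wnt9bKO, 0.27 (-0.16 to 0.71) in DKO and -0.02 (-0.46 to 0.42) in Rspo2KO, none past the threshold.

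*Ptch1*, the receptor gene that is itself induced by the signal, rose in Wnt9bKO and in DKO. It was at 47.1 and 60.8 CPM in wt, at 106, 110.4 and 113 CPM in Wnt9bKO, at 90.6, 92.2 and 86.6 CPM in DKO, and at 96.1, 67.6 and 57.0 CPM in Rspo2KO. All Wnt9bKO and DKO libraries were above both wt libraries, and the library Rspo2KO 1 was above DKO while Rspo2KO 2 and 3 were nearer to wt. The log2 fold change was 1.02 ± 0.18 (SE, adjusted p = 0.000683) in Wnt9bKO and 0.73 ± 0.17 (adjusted p = 0.00687) in DKO. With an offset for GC content and gene length these became 0.68 (adjusted p = 0.0031) and 0.42 (adjusted p = 0.0406). Without wt 1 the DKO change was 0.56 and did not pass the threshold (adjusted p = 0.122).

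Neither co-receptor gene passed the threshold against wt. *Boc* was at 30.01 and 37.3 CPM in wt and between 28.9 and 41.2 CPM in the mutants, and its log2 fold changes of 0.13, 0.05 and 0.14 in Wnt9bKO, Rspo2KO and DKO had 95% intervals within -0.29 and 0.49. *Gas1*, which encodes a membrane-anchored co-receptor, was at 172 and 177 CPM in wt, at 196, 126 and 126 CPM in Wnt9bKO, at 117, 126 and 136 CPM in Rspo2KO, and at 174, 194 and 196 CPM in DKO. The 3 Rspo2KO libraries and the libraries Wnt9bKO 2 and 3 thus lay under both wt libraries, while Wnt9bKO 1 lay with DKO. The log2 fold changes of *Gas1* were -0.22 ± 0.16 in Wnt9bKO, -0.46 ± 0.16 in Rspo2KO (adjusted p = 0.283) and 0.11 ± 0.16 in DKO. Without Wnt9bKO 1, *Gas1* was past the threshold in Wnt9bKO (-0.46, adjusted p = 0.00498).

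*Smo*, the membrane protein gene that carries the signal to the GLI factors, fell in both genotypes that lack *Wnt9b*. It was at 317 and 327 CPM in wt, at 238, 248 and 230.3 CPM in Wnt9bKO, at 233, 245 and 223 CPM in DKO, and at 248, 293 and 314 CPM in Rspo2KO. All Wnt9bKO and DKO libraries were under both wt libraries, and so were the Rspo2KO libraries, of which Rspo2KO 1 was the lowest. The log2 fold change was -0.43 ± 0.11 (adjusted p = 0.00886) in Wnt9bKO and -0.46 ± 0.11 (adjusted p = 0.00712) in DKO. In Rspo2KO it was -0.17 ± 0.11 and not past the threshold (adjusted p = 0.564). Without wt 2 both falls just missed the threshold, at -0.41 (adjusted p = 0.0609) and -0.44 (adjusted p = 0.0545).

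Of the 3 transcription factor genes, *Gli2* and *Gli3* passed the threshold in Wnt9bKO, *Gli3* in DKO and *Gli1* in neither. *Gli1*, the readout among them, was at 25.9 and 23.6 CPM in wt, at 30.8, 26.0 and 25.3 CPM in Wnt9bKO, at 27.9, 25.8 and 24.0 CPM in Rspo2KO, and at 27.5, 23.7 and 17.8 CPM in DKO. The mutant ranges overlapped wt in each case, and the lowest value was that of the library labelled DKO 3. The log2 fold changes of *Gli1* were 0.15 (95% interval -0.20 to 0.50), 0.07 (-0.28 to 0.42) and -0.10 (-0.45 to 0.25) in Wnt9bKO, Rspo2KO and DKO. Without DKO 3 the DKO value was 0.05.

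*Gli2*, which encodes the main activator, was at 23.5 and 23.9 CPM in wt, at 41.8, 39.6 and 47.7 CPM in Wnt9bKO, at 30.7, 31.1 and 43.1 CPM in DKO, and at 48.5, 23.6 and 32.3 CPM in Rspo2KO. All Wnt9bKO and DKO libraries were above both wt libraries, and Rspo2KO spanned the wt level and the highest value of any library. The log2 fold change was 0.86 ± 0.23 (adjusted p = 0.0120) in Wnt9bKO. It was 0.56 ± 0.23 in DKO (adjusted p = 0.0884) and 0.55 ± 0.23 in Rspo2KO (adjusted p = 0.365), neither past the threshold. The Wnt9bKO call was lost without wt 1 (0.85, adjusted p = 0.0905) and without wt 2 (0.87, adjusted p = 0.0752). In DKO *Gli2* was past the threshold without Rspo2KO 1 (adjusted p = 0.0258) or Rspo2KO 2 (adjusted p = 0.0373), with only the DKO and wt libraries fitted (adjusted p = 0.0183) and with low-count genes kept in (adjusted p = 0.00302). Without DKO 3 its DKO value was 0.38.

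*Gli3*, the source of the main repressor, was at 100.2 and 114 CPM in wt, at 157, 233 and 228 CPM in Wnt9bKO, at 170.02, 174 and 217 CPM in DKO, and at 188, 116 and 122 CPM in Rspo2KO. Every mutant library was above both wt libraries, Rspo2KO 2 and 3 only slightly. The log2 fold change was 0.94 ± 0.21 (adjusted p = 0.00374) in Wnt9bKO and 0.80 ± 0.21 (adjusted p = 0.0113) in DKO. In Rspo2KO it was 0.41 ± 0.21 (adjusted p = 0.459). Without wt 1 the changes were 0.85 (adjusted p = 0.062) in Wnt9bKO and 0.71 (adjusted p = 0.127) in DKO, neither past the threshold. Over the alternatives other than leaving out each library in turn, the smallest values were 0.66 in Wnt9bKO and 0.55 in DKO. The DKO value came with the GC content and length offset and a block on replicate number, and did not pass the threshold.

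**Figure D3:**
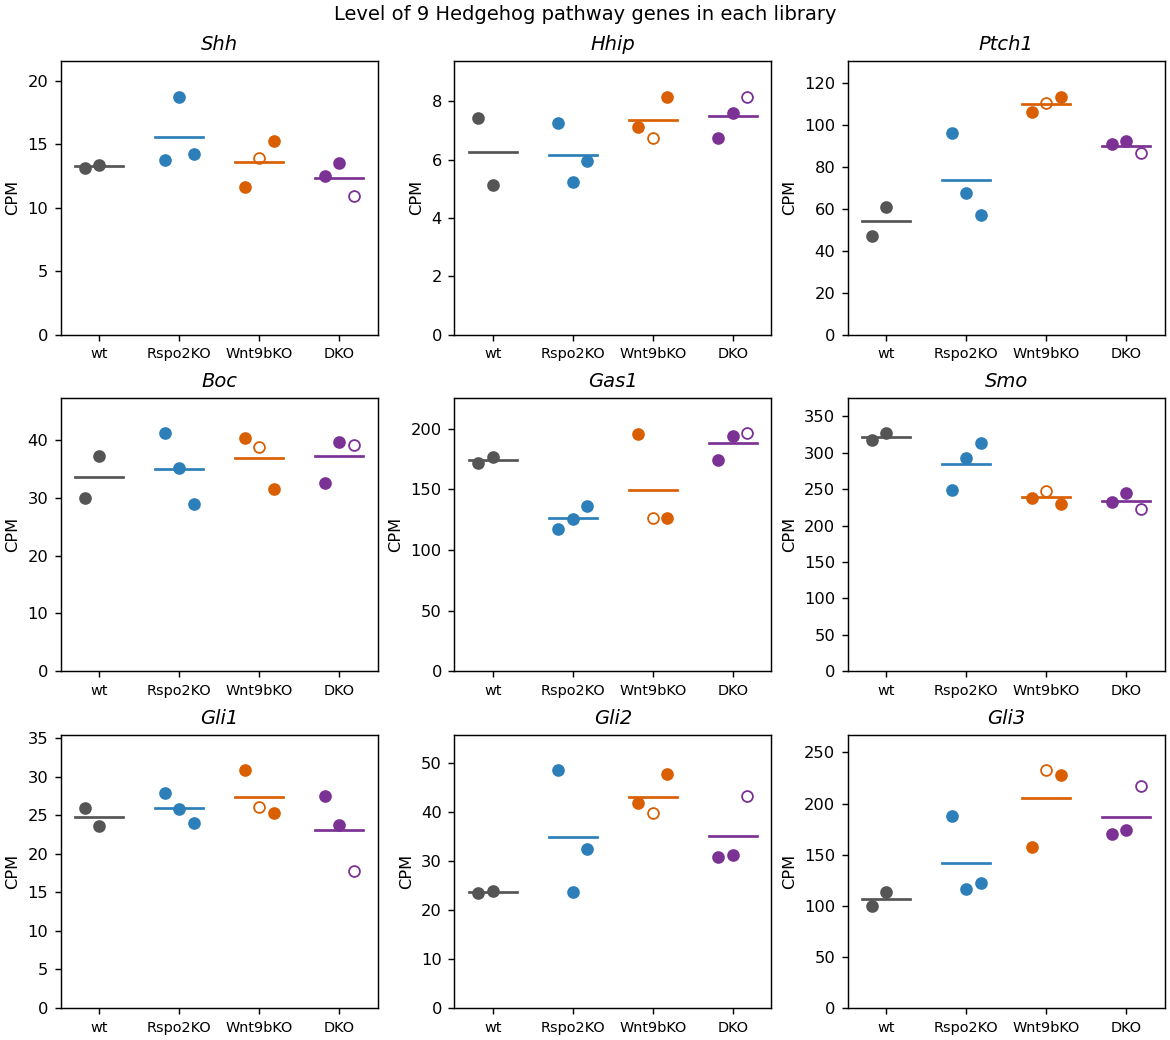
CPM of each of the 9 genes in each library (linear axes from 0), with genotypes on the horizontal axis, points for libraries and bars for means; open points are the libraries labelled Wnt9bKO 2 and DKO 3. *Ptch1*, *Gli2* and *Gli3* are higher in all Wnt9bKO and DKO libraries than in wt, *Smo* is lower, *Shh* and *Gli1* overlap wt there, and Rspo2KO 1 stands apart from Rspo2KO 2 and 3 for *Ptch1*, *Gli2* and *Gli3*.

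In DKO, 3 of the 9 genes passed the threshold, *Ptch1* and *Gli3* higher and *Smo* lower, where 27.5% of all genes tested passed it (14.3% higher, 13.1% lower). With the libraries labelled Wnt9bKO 2 and DKO 3 both left out, the calls were the same 4 genes in Wnt9bKO and the same 3 in DKO. Of all genes, 29.7% and 25.6% passed the threshold in that setting. *Ptch1* was then at 1.02 in Wnt9bKO and 0.75 in DKO, *Gli3* at 0.84 and 0.68, *Smo* at -0.46 and -0.44 (log2 fold changes), and *Gli2* at 0.91 in Wnt9bKO. Since Wnt9bKO and DKO were set against the same wt libraries, their likeness is not independent support for either. Counting libraries that do not overlap with wt, 3 genes were higher and 1 lower in Wnt9bKO, where 28.3% and 28% of all genes were, and 3 higher and 1 lower in DKO, where 29.5% and 28.6% were.

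**Figure D4:**
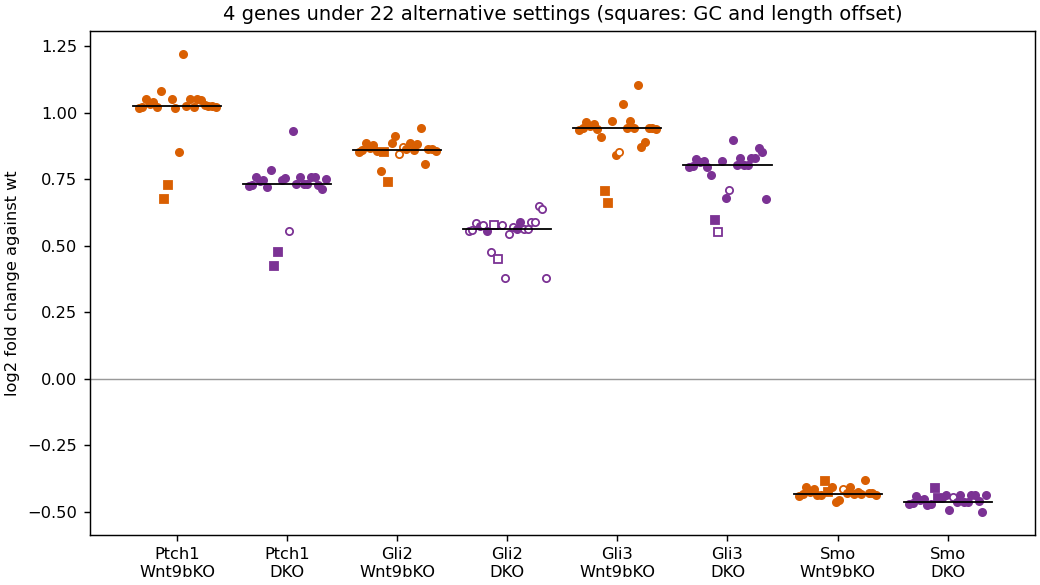
Log2 fold change against wt of *Ptch1*, *Gli2*, *Gli3* and *Smo* in Wnt9bKO and DKO under the 22 alternative settings (points; squares for the GC content and length offset, with and without the replicate block), with the reported value as a line; filled points have an adjusted p below 0.05. The sign was the same under all 22, the offset without the block brought *Ptch1* from 1.02 to 0.68 and from 0.73 to 0.42, and *Gli2* in DKO is mostly open.

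In Rspo2KO none of the 9 genes passed the threshold with edgeR, where 0.0346% of all genes did (6 genes). The lowest adjusted p was 0.283, and 3 genes had an unadjusted p below 0.05 (11.9% of all genes), namely *Ptch1*, *Gli2* and *Gas1*. DESeq2 called none of the 9 either. Without the filter on low counts 2 of them, *Gli2* (0.56, adjusted p = 0.0289) and *Gas1* (-0.46, adjusted p = 0.035), were past the threshold, where 2.04% of all genes were. Without the library Rspo2KO 1, *Ptch1* was at 0.20, *Gli2* at 0.24 and *Gli3* at 0.15 (log2 fold changes), against 0.44, 0.55 and 0.41 with it. Libraries did not overlap with wt for 4 genes, *Shh* and *Gli3* higher and *Smo* and *Gas1* lower, where 17.2% of all genes were higher and 15.7% lower in this way.

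DKO was compared with each single mutant to ask what the second loss adds. Against Wnt9bKO none of the 9 genes passed the threshold with edgeR, where 0.121% of all genes did, and 1 gene, *Gas1*, had an unadjusted p below 0.05 (5.63% of all genes). The log2 fold changes lay between -0.30 (*Gli2*) and 0.33 (*Gas1*, adjusted p = 0.827). Without Wnt9bKO 1, which was at the *Gas1* level of DKO, *Gas1* was 0.57 higher in DKO than in Wnt9bKO on the log2 scale (adjusted p = 0.0266). In that fit 0.281% of all genes passed the threshold. With the libraries labelled Wnt9bKO 2 and DKO 3 both left out, the *Gli2* value was -0.53 (adjusted p = 0.831) and the *Gas1* value 0.19, neither past the threshold, and without DKO 3 alone *Gli2* was at -0.48. DESeq2 called none of the 9.

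Against Rspo2KO, *Gas1* rose in DKO by 0.57 ± 0.14 on the log2 scale (adjusted p = 0.0133), 1.49-fold, the 1 call among the 9 genes, where 18.2% of all genes passed the threshold (9.15% higher). All 3 DKO libraries, at 174 to 196 CPM, were above all 3 Rspo2KO libraries, at 117 to 136 CPM, as 18.2% of all genes were. *Smo* (-0.29, adjusted p = 0.0594), *Gli3* (0.40, adjusted p = 0.153) and *Shh* (-0.34, adjusted p = 0.135) did not pass the threshold. *Smo* was past it with DESeq2 (adjusted p = 0.0278), with at least 10 counts in every library (adjusted p = 0.0439) and with a block on replicate number (adjusted p = 0.0477). Without Rspo2KO 1, 4 genes were past it, among them *Smo* (-0.38, adjusted p = 0.00852) and *Gli3* (0.65, adjusted p = 0.0129), where 23.2% of all genes were.

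The interaction of the genotypes (DKO minus Wnt9bKO minus Rspo2KO plus wt) asks whether the change in DKO departs from the sum of the log2 changes in the single mutants. None of the 9 genes passed the threshold with edgeR, where 0.0635% of all genes did, and the lowest adjusted p was 0.427. At an unadjusted p below 0.05 (9.45% of all genes) there were 3, with *Gas1* above the sum (0.80 ± 0.21) and *Ptch1* (-0.73 ± 0.23) and *Gli2* (-0.85 ± 0.31) under it (log2, with SE). DESeq2 called none. Without the filter on low counts these 3 were past the threshold, *Gas1* at 0.80 (adjusted p = 0.00296), *Gli2* at -0.85 (adjusted p = 0.00841) and *Ptch1* at -0.74 (adjusted p = 0.0118), where 1.24% of all genes were. Without Wnt9bKO 1, *Gas1* alone of the 9 was past the threshold (1.04, adjusted p = 0.00568), where 0.0643% of all genes were. The interaction sets wt and DKO, with high *Xist*, against Wnt9bKO and Rspo2KO, with low *Xist*, so it cannot be told apart from sex.

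The readout genes were set against each other by ratios of their levels per length, chosen after the values were seen and given with no test. The ratio of *Ptch1* to *Gli1* was 0.640 and 0.906 in the wt libraries, 1.21 to 1.58 in Wnt9bKO, 1.16 to 1.71 in DKO and 0.836 to 1.21 in Rspo2KO. The ratio of *Hhip* to *Gli1* was 0.120 and 0.158 in wt, 0.127 to 0.177 in Wnt9bKO and 0.135 to 0.252 in DKO. The first ratio was higher in every Wnt9bKO and DKO library than in wt, and the second overlapped wt in both.

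Variation between libraries of the same genotype was described by correlating log2 CPM, with the genotype mean removed, over the 11 libraries. The libraries share depth, base composition and dissection, and 2 of them go against their labels, so these values are descriptions. *Gli2* varied with *Gli3* (r = 0.76) and *Hhip* (r = 0.69), and *Ptch1* with *Boc* (r = 0.68) and *Gli3* (r = 0.67). *Smo* varied against *Gli2* (r = -0.75) and *Ptch1* (r = -0.72). Within its genotype the library Rspo2KO 1 was highest for *Gli2* (48.5 CPM, genotype median 32.3 CPM), *Gli3* (188 CPM, median 122 CPM) and *Ptch1* (96.1 CPM, median 67.6 CPM). The same library was lowest for *Smo* (248 CPM, median 293 CPM). How far the correlations of these genes rest on that library was not tested. *Gli1* varied little with *Ptch1* (r = 0.21), *Hhip* (r = -0.10) or *Shh* (r = 0.03). Over 14853 genes with a mean of at least 1 CPM, the 5 most like *Gli1* were *Stim1*, *AY512931*, *Itgae*, *Ggnbp1* and *Gm17275* (r = 0.95 to 0.96). The 5 most like *Shh* were *Gorasp2*, *Dusp6*, ENSMUSG00000074303, *Rab10* and *2010315B03Rik* (r = 0.90 to 0.97). No member of the pathway was among either set.

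The wider pathway was read from 60 other genes, grouped as ligands and ligand release (7 genes), reception (4), transduction (21), the primary cilium (18) and targets (10). Of these, 59 were tested, since *Ihh*, the Indian hedgehog ligand gene, had 0 to 4 counts per library. In Wnt9bKO, 30 of the 59 (50.8%) passed the threshold, 21 higher and 9 lower, beside 32.8% of all genes, and the median log2 fold change was 0.17 over the 59 and 0.01 over all genes. In DKO, 23 (39.0%) passed, 15 higher and 8 lower, beside 27.5% of all genes, with a median of 0.16. Without wt 1 these counts were 17 and 15, beside 17.6% and 12.7% of all genes. In Rspo2KO none passed with edgeR, 14 had an unadjusted p below 0.05 (11.9% of all genes), and DESeq2 called 2 (0.637% of all genes). Against Wnt9bKO none of the 59 passed in DKO (4 with an unadjusted p below 0.05, beside 5.63% of all genes). None passed for the interaction (7 with an unadjusted p below 0.05, beside 9.45% of all genes). Against Rspo2KO 19 passed in DKO, 14 higher and 5 lower, beside 18.2% of all genes, and the count was 9 without Rspo2KO 2, 8 without Rspo2KO 3, 11 without DKO 1 and 12 without DKO 2, beside 10%, 9.75%, 10.8% and 10.9% of all genes.

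**Figure D5:**
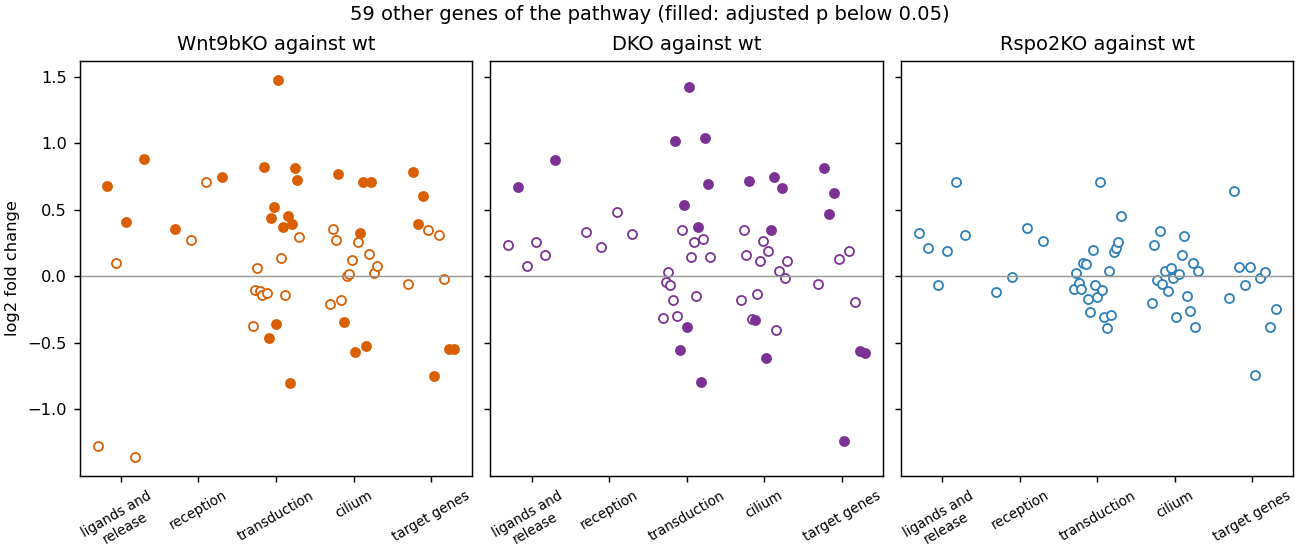
Log2 fold change against wt of 59 other pathway genes in 5 groups, for Wnt9bKO, DKO and Rspo2KO; filled points have an adjusted p below 0.05. In Wnt9bKO 30 points are filled and in DKO 23, on both sides of 0 in the transduction, cilium and target groups, and in Rspo2KO none is. The 3 comparisons share the wt libraries.

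Of the 6 ligand and release genes tested, 3 rose in Wnt9bKO (16.8% of all genes did) and 2 in DKO (14.3% of all genes). *Scube3*, one of the secreted SCUBE proteins that help release the lipid-modified ligand, rose by 0.88 ± 0.13 (log2, adjusted p = 0.000224) in Wnt9bKO and 0.87 ± 0.13 (adjusted p = 0.000288) in DKO. *Disp1*, the transporter that exports the ligand, rose by 0.68 ± 0.14 (adjusted p = 0.00233) and 0.67 ± 0.14 (adjusted p = 0.00338). *Scube1* rose in Wnt9bKO by 0.41 ± 0.13 (adjusted p = 0.0273), a call that was lost with the GC content and length offset (adjusted p = 0.0644), without Wnt9bKO 2 (adjusted p = 0.0657), without wt 1 (adjusted p = 0.141) and without wt 2 (adjusted p = 0.123), and was at 0.25 in DKO (adjusted p = 0.166). In all, the Wnt9bKO call of *Scube1* was lost under 6 of the 22 alternatives. *Dhh*, the Desert hedgehog ligand gene, and *Scube2* were near the limit of detection, with 2 to 23 and 6 to 36 counts per library. Their log2 fold changes of -1.28 and -1.36 in Wnt9bKO did not pass the threshold (adjusted p = 0.0863 and 0.0803).

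Of the 4 reception genes, 2 rose in Wnt9bKO (16.8% of all genes did) and none passed the threshold in DKO (27.5% of all genes). *Cdon*, a co-receptor related to BOC, rose in Wnt9bKO by 0.36 ± 0.13 (adjusted p = 0.0477) and was at 0.33 in DKO (adjusted p = 0.0724). With the GC content and length offset the *Cdon* value in Wnt9bKO was 0.18 (adjusted p = 0.253), and its call was lost when any 1 of 8 libraries was left out. In all, 13 of the 22 alternatives ended that call.

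Transduction genes moved in both directions, 9 higher and 3 lower of 21 in Wnt9bKO and 6 higher and 3 lower in DKO. Of all genes, 16.8% were higher and 16% lower in Wnt9bKO, and 14.3% and 13.1% in DKO. *Gsk3b*, a kinase that marks GLI proteins for processing and also acts in the WNT pathway, had 94.6 and 109 CPM in the wt libraries, against 263 to 295 CPM in Wnt9bKO. It rose by 1.47 ± 0.17 (log2, adjusted p = 4.28e-05) there and by 1.42 ± 0.17 (adjusted p = 6.26e-05) in DKO. *Stk36*, a kinase of the Fused family, rose by 0.81 ± 0.17 and 1.04 ± 0.17 (adjusted p = 0.00225 and 0.000541). Among genes of protein kinase A, which promotes GLI repressor formation, the regulatory subunit gene *Prkar1a* fell by 0.81 in Wnt9bKO and by 0.79 in DKO on the log2 scale (adjusted p = 0.000823 and 0.0012). The catalytic subunit gene *Prkacb* rose by 0.45 ± 0.10 in Wnt9bKO (adjusted p = 0.00398), which became 0.23 with the GC content and length offset (adjusted p = 0.0568), and its call was also lost without wt 1 (adjusted p = 0.0686). In DKO it rose by 0.37 ± 0.10 (adjusted p = 0.0159), a call lost with the offset (0.15, adjusted p = 0.198), without wt 1 (adjusted p = 0.174) and without DKO 1 (adjusted p = 0.0667). *Gpr161*, a ciliary receptor that holds the pathway off, rose by 0.52 ± 0.12 in Wnt9bKO (adjusted p = 0.00506) and by 0.53 ± 0.12 in DKO (adjusted p = 0.00541), calls lost without wt 1 (adjusted p = 0.0545 and 0.0604). *Evc2*, which acts with Smoothened in the cilium, fell by 0.47 and 0.56 on the log2 scale in Wnt9bKO and DKO (adjusted p = 0.00492 and 0.00213), and *Grk2*, a kinase of Smoothened, by 0.36 and 0.39 (adjusted p = 0.0314 and 0.026). The *Grk2* changes were not recomputed under the alternative settings.

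Of 18 cilium genes, 4 rose and 3 fell in Wnt9bKO (16.8% and 16% of all genes), and 4 rose and 2 fell in DKO (14.3% and 13.1%). Those that rose include *Dync2h1* and *Kif3b*, motor genes of intraflagellar transport, and *Rpgrip1l*, a gene of the ciliary transition zone, by 0.77, 0.71 and 0.71 in Wnt9bKO and 0.72, 0.74 and 0.66 in DKO (log2, adjusted p between 0.000232 and 0.00329). With the GC content and length offset the *Dync2h1* values were 0.38 and 0.36 and the *Rpgrip1l* values 0.37 (adjusted p = 0.0268) and 0.33 (adjusted p = 0.0484). The *Rpgrip1l* call in DKO was lost with the offset and the block on replicate number together (0.30, adjusted p = 0.0871) and without wt 1 (adjusted p = 0.0518). *Inpp5e*, a ciliary phosphatase gene, fell by 0.57 in Wnt9bKO and by 0.61 in DKO (adjusted p = 0.00132 and 0.00109). *Ift122* fell by 0.34 and 0.33 (adjusted p = 0.028 and 0.0375) and *Mks1* fell by 0.52 in Wnt9bKO (adjusted p = 0.0398) and was at -0.40 in DKO (adjusted p = 0.116). The call of *Ift122* was lost in Wnt9bKO without wt 2 (-0.23), Wnt9bKO 2 or Wnt9bKO 3, and in DKO without any 1 of 7 libraries, with its smallest value without wt 2 (-0.22). Over the 22 alternatives it was lost under 6 in Wnt9bKO and 11 in DKO. The call of *Mks1* was lost with the offset (adjusted p = 0.0814) and without any 1 of 6 libraries, wt 1 (adjusted p = 0.151) and wt 2 (adjusted p = 0.127) among them. In all, 12 of the 22 alternatives ended the *Mks1* call.

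The 10 target genes, transcribed in response to Hedgehog signaling in facial or other tissues, were also split, with 3 higher and 3 lower in Wnt9bKO and the same numbers in DKO. Beside them, 16.8% of all genes were higher and 16% lower in Wnt9bKO, and 14.3% and 13.1% in DKO. *Foxf1*, a forkhead factor gene induced by SHH in facial mesenchyme, was at 23.9 and 24.8 CPM in wt, at 17.8, 10.7 and 14.9 CPM in Wnt9bKO, at 10.04, 9.59 and 11.3 CPM in DKO, and at 13.2, 15.1 and 15.2 CPM in Rspo2KO. Every mutant library was under both wt libraries, and the DKO libraries were the lowest together with Wnt9bKO 2. *Foxf1* fell by 0.75 on the log2 scale in Wnt9bKO (adjusted p = 0.00493) and by 1.24 in DKO (adjusted p = 0.000228), and was at -0.75 in Rspo2KO (adjusted p = 0.206). The Rspo2KO value was past the threshold under 2 of the 22 alternatives. *Foxd1*, another forkhead factor gene of the facial mesenchyme, had 27.9 and 25.6 CPM in the wt libraries against 38.3 to 42.0 CPM in Wnt9bKO, and rose by 0.60 ± 0.13 (adjusted p = 0.00286) there and by 0.63 ± 0.13 (adjusted p = 0.00277) in DKO. *Foxc2* rose by 0.39 and 0.47 (adjusted p = 0.037 and 0.0192), calls that were lost in both genotypes without wt 1 (adjusted p = 0.186 and 0.132), wt 2 (adjusted p = 0.119 and 0.0822), DKO 1 or DKO 2, and in Wnt9bKO also without Wnt9bKO 2 or Wnt9bKO 3. In all, the Wnt9bKO call of *Foxc2* was lost under 10 of the 22 alternatives. The cell cycle gene *Ccnd2* rose by 0.78 and 0.81 (adjusted p = 0.0106 and 0.0104), and was not past the threshold without wt 1 (0.47 and 0.49, adjusted p = 0.186 and 0.183). *Mycn*, a growth regulator gene, fell by 0.55 and 0.56 (adjusted p = 0.00217 and 0.00241), and *Rab34*, a vesicle transport gene needed for cilia, by 0.54 and 0.58 (adjusted p = 0.00137 and 0.00116). The *Rab34* value in Wnt9bKO was -0.34 with the GC content and length offset, still past the threshold (adjusted p = 0.0191).

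Markers of several cell types differed between genotypes as well. Beside the counts of markers that rose or fell, 32.8% of all genes passed the threshold in Wnt9bKO and 27.5% in DKO. Summed over 4 markers of the ventral midline and endoderm (*Foxa1*, *Foxa2*, *Nkx2-1* and *Nkx2-2*), tissues that make SHH, the level was 8.94 and 10.004 CPM in wt, 17.6 to 21.7 CPM in Wnt9bKO, 15.3 to 23.8 CPM in DKO and 11.6 to 18.7 CPM in Rspo2KO. Of these markers 2 rose in Wnt9bKO and 2 in DKO, and none of the 4 was at 0 in any library. *Nkx2-1* weighed most in the sum, at 3.44 to 19.2 CPM over all libraries. *Foxa1*, *Foxa2* and *Nkx2-2* reached at most 2.00, 3.67 and 3.24 CPM. The median log2 fold change of the 4 was 0.25 in Wnt9bKO and 0.57 in DKO. Summed over 6 forebrain and eye markers, the level was 79.4 and 88.8 CPM in wt, 99.9 to 207 CPM in Wnt9bKO, 127 to 140 CPM in DKO and 90.3 to 105 CPM in Rspo2KO, and 5 of the 6 rose in Wnt9bKO and in DKO. The 11 mesenchyme markers summed to 1121 and 1208 CPM in wt, 794 to 1431 CPM in Wnt9bKO, 847 to 918 CPM in Rspo2KO and 931 to 1032 CPM in DKO, with 1 higher in Wnt9bKO and 1 lower in DKO. Neuron markers (6 genes) summed to 499 and 538 CPM in wt, 306 to 442 CPM in Wnt9bKO, 538 to 584 CPM in DKO and 596 to 658 CPM in Rspo2KO, with 1 lower in Wnt9bKO and 3 higher in DKO. Endothelium markers (4 genes) gave 117 and 123 CPM for wt against 136 to 168 CPM over the mutants, with 2 higher in Wnt9bKO and 2 in DKO. Erythroid markers (5 genes) gave 3876 and 4810 CPM for wt, 4377 to 5658 CPM for Rspo2KO and 1667 to 2740.1 CPM over Wnt9bKO and DKO, with 3 lower in Wnt9bKO and 5 in DKO. Of the surface epithelium markers 2 were higher and 1 lower in each of Wnt9bKO and DKO. Heart markers (4 genes) summed to 25.3 CPM in wt 1, to 2.66 CPM in wt 2 and to between 0.705 and 2.37 CPM over the mutants, with *Tnnt2* at 0 in at least 1 library. The part of these cell types in the changes of *Ptch1*, *Gli2*, *Gli3* and *Smo* was not tested.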

How the data were processed

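RNA of facial process explants was sequenced in 11 libraries, grouped by the genotype and replicate number in their labels. The authors used Cutadapt for trimming, STAR for mapping of the single-end reads (genome GRCm38) and HTSeq for counting, and deposited the counts, whole numbers of reads per Ensembl gene without normalization. The submitters' processing notes also name DESeq2. Versions and the strand setting of the counting are not given in the sources used here. The files hold counts for 38561 genes, of which 36639 matched GENCODE M21, the source of exon lengths and GC content.

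Counts were filtered with edgeR's filterByExpr, scaled by TMM factors and fitted with edgeR's quasi-likelihood model (edgeR 4.0.16, limma 3.58.1, R 4.3.3), with 1 mean per genotype over all 11 libraries because wt has only 2. P-values are two-sided and adjusted by the Benjamini-Hochberg method over the 17317 genes tested, with a threshold of 0.05. The 95% intervals come from the standard error and the moderated degrees of freedom, and each p-value measures only the spread between these libraries, since no source says that they came from separate embryos or litters. Alternatives were DESeq2 1.42.0, RLE and upper-quartile factors, no filter, a minimum of 10 counts per library, a fit of the compared groups alone, a block on replicate number, an offset fitted by loess to GC content and length (span 0.3) with or without that block, autosomal protein-coding genes, a p below 0.05 with over 1.5-fold change, glmTreat against 1.5-fold, leaving out both libraries whose *Rspo2* goes against their labels, and leaving out each library. Replicate numbers were checked for pairing by correlating each library's deviations from its genotype mean. For DKO and Wnt9bKO all 3 same-numbered pairs were above 0.1 (0.136 to 0.322), so the numbers were taken to pair these libraries, on a hint from the data and not from the labels. With the block that comparison again called 0 of the 9 and 0 of the 59 other pathway genes. The code was also run on simulated counts of independent libraries in which few genes changed, and in DKO only. These data differ from that setting, so the run does not check the calls made here. Figures used Python 3.11.15 and matplotlib 3.10.9.

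The 9 genes and the lists were chosen with earlier results of these data known. Named genes are the 9, up to 3 genes per direction, list and comparison with wt by smallest p among those past the threshold at a mean of at least 1 CPM, the genes of the ligand and target lists, and the 5 genes most like *Gli1* and *Shh*. *Xist*, the ratios of levels the Wnt9bKO value of *Gpr161* and the DKO values of *Cdon*, *Prkacb* and *Mks1* were chosen after their values were seen. Annotated genes overlapping the 9 had at most 38 counts in a library where they were counted. Values of 1 gene of the lists are not reported here. Promoter windows came from RefSeq.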

Additional observations from a re-analysis of the deposited data

How the results depend on the processing

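Of 594 recomputed values of the 27 changes of the 9 genes against wt, 564 kept their direction and side of the threshold, 8 lost the threshold, 7 gained it and 15 changed sign, none of a gene past the threshold. With the GC content and length offset *Shh* in DKO was at 0.0156, and with the offset and block at 0.0301. *Gli1* in DKO was at 0.0181 with the offset and block and at 0.0483 without both libraries whose *Rspo2* goes against their labels. The other sign changes came from leaving out 1 library, with ranges of -0.0272 to 0.140 (*Shh*), -0.0184 to 0.510 (*Hhip*) and -0.0171 to 0.298 (*Boc*) in Wnt9bKO, -0.0039 to 0.139 (*Gli1*), -0.279 to 0.261 (*Hhip*) and -0.0799 to 0.221 (*Boc*) in Rspo2KO, and -0.252 to 0.0473 (*Gli1*) and -0.0103 to 0.307 (*Boc*) in DKO. The cause was not tested.

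Leaving out 1 library at a time, the count among the 9 was 2 to 5 in Wnt9bKO (2 without wt 1 or wt 2, with 17.6% and 18.8% of all genes), 1 to 4 in DKO (1 without wt 1, with 12.7%), 0 in Rspo2KO, 0 to 1 in DKO against Wnt9bKO, 1 to 4 in DKO against Rspo2KO (4 without Rspo2KO 1, with 23.2%) and 0 to 1 for the interaction. Among the 59 other pathway genes it was 17 to 32, 15 to 27, 0, 0 to 1, 8 to 22 and 0. Over these fits 17.6% to 35.4% of all genes were called in Wnt9bKO, 12.7% to 31.7% in DKO and 0.0348% to 0.301% in Rspo2KO. For DKO against Wnt9bKO, DKO against Rspo2KO and the interaction it was 0.0523% to 0.325%, 9.75% to 23.2% and 0.0391% to 0.0871%. With glmTreat against 1.5-fold, 0 of the 9 were called in each of the 5 comparisons between genotypes (it was not run for the interaction), and 1 (Wnt9bKO), 2 (DKO) and 0 (DKO against Rspo2KO) of the 59, where 4.82%, 3.2% and 1.78% of all genes were. With an unadjusted p below 0.05 and over 1.5-fold change, the 59 gave 17 in Wnt9bKO, 14 in DKO, 3 in Rspo2KO, 2 in DKO against Wnt9bKO and 5 in DKO against Rspo2KO, and the 9 gave 0 in DKO against Rspo2KO. All genes gave 24.8%, 20.4%, 4.68%, 2.93% and 12.2%. At an unadjusted p below 0.05 the interaction gave 3 of the 9 and 7 of the 59, beside 9.45% of all genes. Without the filter on low counts, the 9 gave 2 in Rspo2KO, 2 in DKO against Rspo2KO and 3 for the interaction, and the 59 gave 3 in Rspo2KO, 1 in DKO against Wnt9bKO and 1 for the interaction, beside 2.04% of all genes in Rspo2KO, 0.783% in DKO against Wnt9bKO, 12.6% in DKO against Rspo2KO and 1.24% for the interaction. DESeq2 called 2 of the 59 in Rspo2KO (0.637% of all genes) and 2 of the 9 in DKO against Rspo2KO (11.3%), as did at least 10 counts in every library for the latter (21.5%).

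With the replicate block, 2 of the 9 were called in DKO against Rspo2KO (*Gas1* and *Smo*, -0.29, adjusted p = 0.0477; 20.1% of all genes), also 2 with the offset and block (21.6%). The offset with the block also ended the call of *Gli3* in DKO (0.55, adjusted p = 0.0626). Outside DKO and Wnt9bKO the numbers were not taken to pair libraries: same-numbered pairs correlated at 0.0956 to 0.139 for DKO and Rspo2KO, 0.0627 to 0.129 for Wnt9bKO and Rspo2KO and -0.142 to 0.0207 with wt. Over the mutants all 9 same-numbered pairs were above 0 and 17 of 18 others below 0. Deviations from a genotype mean sum to 0, so the signs of the others are tied to those of the same-numbered pairs. Among named pathway genes the block ended the calls of *Mks1* in Wnt9bKO (adjusted p = 0.0628) and *Ift122* in DKO (adjusted p = 0.0616) and *Cdon* in DKO passed (adjusted p = 0.0488), and with the offset it ended those of *Ccnd2* (adjusted p = 0.0763 and 0.0588). The 5 genes most like *Gli1* were shared in full under RLE factors and a prior count of 5, and 4 or 5 of those most like *Shh*. Of the 42 named pathway changes past the threshold, those of *Grk2* in Wnt9bKO and DKO were not recomputed. Among 880 recomputed values of the others, 74 lost the threshold and 0 changed sign. Depth limits *Hhip* (83 reads in the smallest library) most among the 9, and wt, with 2 libraries, limits all comparisons with it.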
